A study of Mus musculus with 8 samples.

Results

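The 10 genes described here encode subunits of the Polycomb complexes: Ezh1, Ezh2, Eed, Suz12 and Jarid2 of Polycomb repressive complex 2 (PRC2), and Rnf2, Ring1, Pcgf3, Pcgf5 and Kdm2b of Polycomb repressive complex 1 (PRC1). They were taken by symbol from the 24542 genes of each table, and all 10 were found in all 8 samples. RNA-seq was performed in TX1072, a female hybrid ESC line of Mus musculus castaneus (Cast) and C57BL/6 (B6) mice in which doxycycline (DOX) switches on Xist from the B6 X chromosome, and in Hdac3-/- cells made from it by CRISPR deletion. The 4 groups were Hdac3+/+ and Hdac3-/- cells, each at 0 hr without DOX and after 24 hr of DOX at 1 ug/ml, with 2 samples per group. All cells carried the inducible Xist promoter and were grown as ESCs in 2i/LIF medium with serum. The Hdac3+/+ samples were duplicates of 1 line. The Hdac3-/- samples were 2 independent clones, called clone 1 and clone 2 here by their replicate number, so that the spread between them includes differences between clones. The tables give, for each gene, all reads on its exons and the reads that carry a B6 or a Cast SNP.

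PRC2 trimethylates histone H3 on lysine 27, and PRC1 ubiquitinates histone H2A. EZH1 and EZH2 are the alternative methyltransferases of PRC2, EED and SUZ12 are its core partners, and JARID2 is an accessory subunit that binds chromatin. RNF2 (RING1B) and RING1 (RING1A) are the alternative ubiquitin ligases of PRC1. PCGF3 and PCGF5 each define a variant PRC1 that acts early on the Xist-coated chromosome, and KDM2B brings the PCGF1 variant of PRC1 to unmethylated CpG islands. In ESCs these complexes keep developmental genes such as the Hox clusters repressed.

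Expression of 2 of the 10 genes was called higher in Hdac3-/- than in Hdac3+/+ cells, and both belong to PRC2. Jarid2 was 2.39-fold higher at 0 hr and 2.11-fold higher at 24 hr, and Suz12 was 1.44-fold and 1.34-fold higher. None of the 10 was called lower, and the methyltransferase genes Ezh1 and Ezh2 were not among the genes called. Over all 13226 genes tested at 0 hr, 13.6% were called by edgeR's quasi-likelihood test at an adjusted p under 0.05, 6.33% higher and 7.24% lower, and whether 2 of 10 members differs from these shares was not tested. With an absolute log2 fold change above 1 as well, the share was 6.19% of all genes and 1 of 10 members, Jarid2. Without a replicate block, none of the 10 genes was called for a change with DOX in either genotype.

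Because Jarid2 and Suz12 were both higher, the 250 bases before their annotated start sites are shown, with those of Eed, a PRC2 partner that was not called. The sequences are from RefSeq (GRCm38.p6) and are written 5′ to 3′ on the strand of the gene. Capitals mark CG dinucleotides. All 10 genes were matched to RefSeq by symbol. Jarid2 is given at its first start (chr13:44730524-44730773, plus strand) and at its second (chr13:44731021-44731270, plus strand), Suz12 at chr11:79992856-79993105 on the plus strand and Eed at chr7:89980977-89981226 on the minus strand.
Jarid2, first start: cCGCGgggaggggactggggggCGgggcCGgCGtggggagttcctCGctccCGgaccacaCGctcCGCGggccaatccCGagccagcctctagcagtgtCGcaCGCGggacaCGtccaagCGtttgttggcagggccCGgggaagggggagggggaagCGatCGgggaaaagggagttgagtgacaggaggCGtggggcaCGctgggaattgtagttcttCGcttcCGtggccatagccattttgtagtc
Jarid2, second start: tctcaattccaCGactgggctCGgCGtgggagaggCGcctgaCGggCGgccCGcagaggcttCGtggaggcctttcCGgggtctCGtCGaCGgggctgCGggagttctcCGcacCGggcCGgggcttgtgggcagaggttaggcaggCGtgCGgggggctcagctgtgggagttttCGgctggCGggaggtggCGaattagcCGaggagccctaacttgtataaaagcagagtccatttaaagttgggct
Suz12: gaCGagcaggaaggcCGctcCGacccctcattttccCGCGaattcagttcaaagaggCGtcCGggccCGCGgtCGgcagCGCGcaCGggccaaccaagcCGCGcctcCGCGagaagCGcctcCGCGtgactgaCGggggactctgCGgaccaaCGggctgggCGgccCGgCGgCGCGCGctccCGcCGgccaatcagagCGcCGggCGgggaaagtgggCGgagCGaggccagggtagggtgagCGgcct
Eed: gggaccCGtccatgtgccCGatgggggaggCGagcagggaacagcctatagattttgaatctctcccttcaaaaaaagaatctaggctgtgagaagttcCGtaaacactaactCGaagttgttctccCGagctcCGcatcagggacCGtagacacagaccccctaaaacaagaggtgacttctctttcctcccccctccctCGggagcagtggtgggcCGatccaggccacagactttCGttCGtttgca
These windows held 23 and 22 CG for Jarid2, 37 for Suz12 and 12 for Eed, against a median of 6 over 32851 annotated windows of the same length. Over all 16 windows of the 10 genes the number ran from 4 at one start of Pcgf5 to 38 at one start of Kdm2b. Among the other members that were not called, the windows of Ring1, Ezh2, Rnf2, Pcgf3 and Ezh1 held 30, 23, 20, 16 and 14 CG. A link between the number of CG and the change in expression was not tested. Motifs were searched on both strands, and matches to different motifs were allowed to overlap. The GC box GGGCGG was found in 10 of the 16 windows, including 1 copy in each Jarid2 window and 3 in that of Suz12, and in 32.74% of all windows. Ring1, Rnf2, Pcgf5 and Kdm2b, which were not called, also had it, while Ezh1, Ezh2, Eed and Pcgf3 did not. The 16 windows are not independent, since some genes have several starts. The Kdm2b windows at chr5:122900351-122900600 and chr5:122900368-122900617 overlap. Whether 10 of 16 differs from the share of all windows was not tested. The E2F-like motif TTTNNCGC was found once, in the Suz12 window, and in 4.28% of all windows. The ETS-like CCGGAAG, YY1-like AAGATGG and NRF1-like GCGCATGC were found in 0 of the 16 windows and in 6.907%, 4.487% and 2.256% of all windows. These are matches of letters and not sites shown to be bound.

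The libraries held 6940375 to 17125156 reads, and 30.05% to 31.59% of them were assigned to an allele. Hdac3 had 507 and 512 reads in Hdac3+/+ cells at 0 hr and 98 and 87 in the clones, and 416 and 301 against 63 and 70 at 24 hr, while Xist was at 7.25 to 17.1 CPM at 0 hr and at 1534 to 2050 CPM at 24 hr. All 8 naive ESC markers were above 1 TPM in every library, with a summed level of 4614 to 5074 TPM in Hdac3+/+ and 5574 to 6249 TPM in Hdac3-/- cells. Over the same groups the 4 primed markers summed to 125.6 to 141.5 and 78.9 to 91.0 TPM, the 5 endoderm markers to 288.1 to 368.6 and 195.8 to 247.5 TPM, the 3 trophoblast markers to 20.1 to 46.5 and 20.9 to 23.0 TPM, and the 5 fibroblast markers to 33.3 to 50.9 and 22.1 to 33.0 TPM, with Col3a1 and Postn at 0 in every Hdac3+/+ library. The endoderm sum was mostly Sparc (183.3 to 362.4 TPM), which was called lower at 0 hr (log2 fold change -0.45, adjusted p = 0.0410), while Dab2 of the same list was called higher (1.11, adjusted p = 0.0282). Neither was called at 0 hr in the fit of all 8 samples, and at 24 hr only Sparc was called. Of the 8 naive markers, 3 were called higher and 0 lower at both times. Of 3 primed markers tested, 0 were called higher and 1 lower at both times. Over all genes 6.33% were called higher and 7.24% lower at 0 hr. The part of these markers in the differences below was not tested. In bulk RNA, fewer cells that express a gene and less RNA per cell cannot be told apart.

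Levels were first compared between the genes as TPM, which corrects for gene length. In Hdac3+/+ cells at 0 hr Jarid2 was at 236.8 ± 22.2 TPM and Suz12 at 232.1 ± 4.34 TPM (SD, n = 2 here and throughout), and their values overlapped. Eed followed with 131.3 ± 13.4 TPM and Rnf2 with 98.2 ± 5.08 TPM. Kdm2b was at 78.7 ± 3.95, Ezh2 at 67.3 ± 1.29 and Pcgf3 at 41.4 ± 0.756 TPM. Within the alternative pairs, Ezh2 was above Ezh1, which was at 15.9 ± 1.88 TPM, and Rnf2 was above Ring1, at 4.21 ± 0.456 TPM. Pcgf5 was the lowest at 1.38 ± 0.234 TPM, far below Pcgf3. In Hdac3-/- cells at 0 hr Jarid2 reached 531.6 ± 15.9 TPM and Suz12 313.3 ± 8.49 TPM, no longer overlapping. The order of the middle of the list depends on the length used. With the longest transcript in place of all exons, Kdm2b (127.9 TPM) and Ezh2 (124.9 TPM) overlapped each other and stood above Rnf2 (97.96 TPM), and Eed (188.2 TPM) overlapped Suz12 (203.1 TPM).

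**Figure D1:**
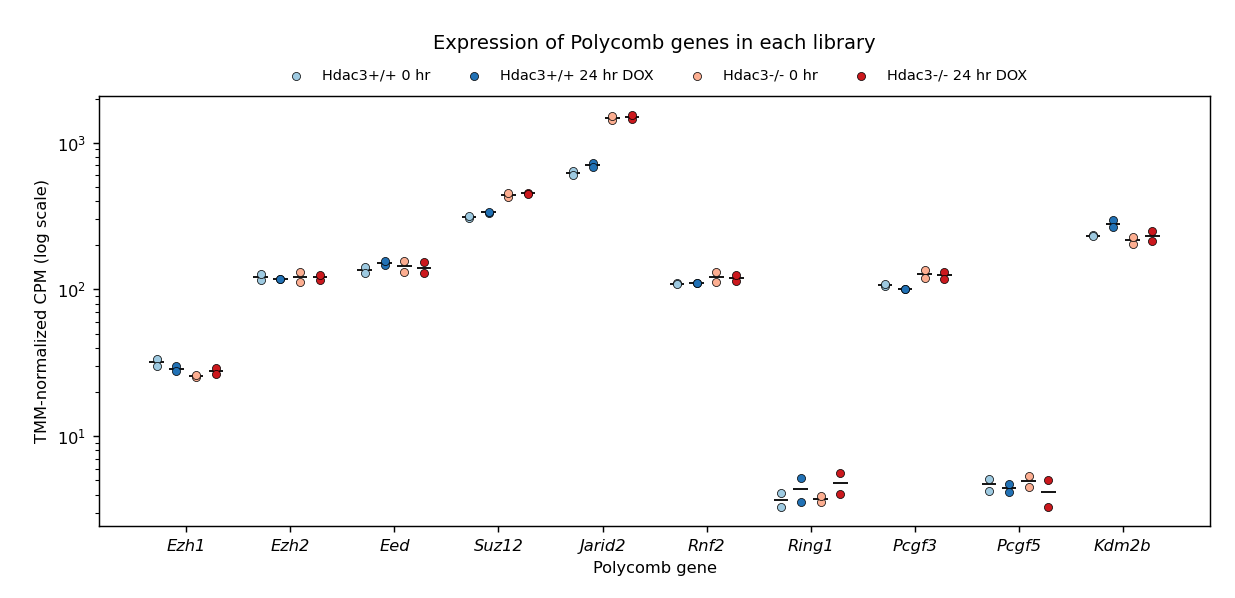
Expression of the 10 Polycomb genes in TMM-normalized CPM on a log axis. Each point is 1 library, colored by genotype and time of DOX, and short lines are means of the 2 libraries. Jarid2 sits between 598 and 727 in Hdac3+/+ libraries and between 1428 and 1538 in Hdac3-/- libraries, while Ring1 and Pcgf5 reach at most 5.62 and 5.35.

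The PRC2 genes were compared next between genotypes, as CPM normalized by TMM. Jarid2 (chromosome 13, 44729474 to 44921643, GRCm38) was at 646 and 598 CPM in Hdac3+/+ cells at 0 hr and at 1428 and 1516 CPM in the clones. At 24 hr it was at 727 and 682 CPM in Hdac3+/+ cells and at 1439 and 1538 CPM in the clones. Every Hdac3-/- library was above every Hdac3+/+ library, and both clones were more than 2-fold above the Hdac3+/+ mean at each time. The log2 fold change was 1.26 (SE 0.085, 95% interval 1.06 to 1.45, adjusted p = 0.000391) at 0 hr and 1.08 (SE 0.076, 95% interval 0.91 to 1.25, adjusted p = 0.000161) at 24 hr. At 24 hr, 2 of the 10 members and 12.9% of 13807 genes were called, 6.01% higher and 6.90% lower.

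Suz12 (chromosome 11, 79993106 to 80034123) was at 306 and 315 CPM in Hdac3+/+ cells at 0 hr, and at 429 and 454 CPM in the clones. At 24 hr the values were 333 and 339 CPM in Hdac3+/+ cells and 456 and 445 CPM in Hdac3-/- cells. The groups did not overlap, and the gap between genotypes was larger than that between the clones at both times. The log2 fold change was 0.52 (SE 0.085, 95% interval 0.33 to 0.72, adjusted p = 0.00818) at 0 hr and 0.42 (SE 0.070, 95% interval 0.27 to 0.58, adjusted p = 0.00585) at 24 hr. The call needed both Hdac3+/+ libraries of its time point. At 0 hr the adjusted p was 0.105 without Hdac3+/+ replicate 1 and 0.0803 without replicate 2, with log2 fold changes of 0.49 and 0.54. At 24 hr it was 0.0651 and 0.0545, with log2 fold changes of 0.42 and 0.44.

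The remaining PRC2 genes were not called at either time. Ezh2 was at 117 and 127 CPM in Hdac3+/+ cells and at 113 and 131 CPM in the clones at 0 hr, and the clones lay on either side of the Hdac3+/+ values. Its log2 fold change was 0.01 (95% interval -0.24 to 0.27) at 0 hr and 0.04 (95% interval -0.19 to 0.26) at 24 hr. Eed was at 142 and 130 CPM in Hdac3+/+ cells and at 131 and 157 CPM in the clones, a log2 fold change of 0.09 (95% interval -0.17 to 0.36). At 24 hr Eed was at 147 and 156 CPM against 129 and 153 CPM (-0.11, 95% interval -0.38 to 0.16). Ezh1 was at 33.8 and 30.2 CPM in Hdac3+/+ cells and at 25.27 and 26.04 CPM in the clones at 0 hr, without overlap, but the test gave a log2 fold change of -0.30 (95% interval -0.62 to 0.01) with an adjusted p of 0.182. At 24 hr Ezh1 was at 29.9 and 27.8 CPM against 29.3 and 26.5 CPM, and the groups overlapped.

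**Figure D2:**
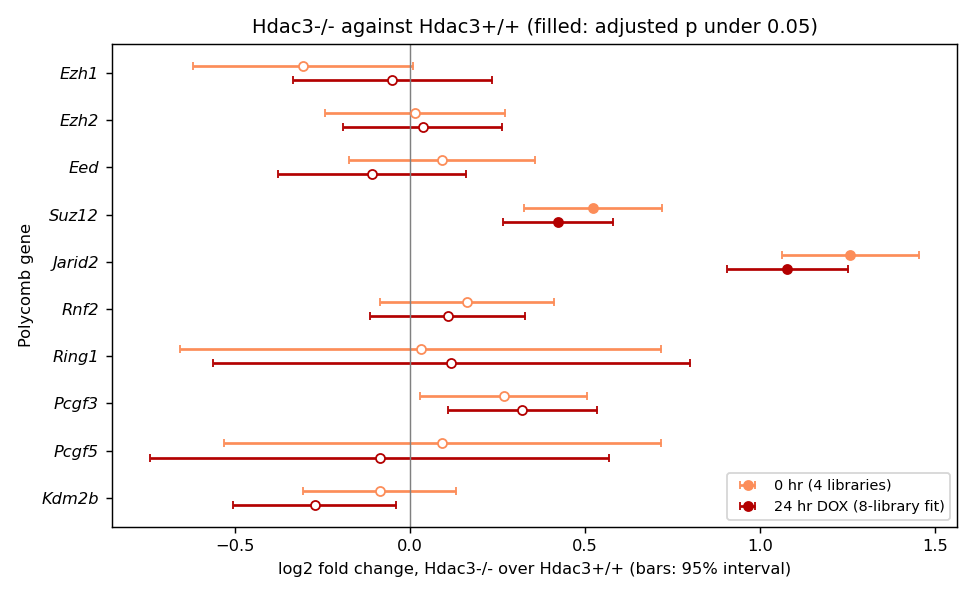
Log2 fold change of each Polycomb gene in Hdac3-/- over Hdac3+/+ cells at 0 hr and 24 hr, with 95% intervals from edgeR. Filled points passed an adjusted p of 0.05. Jarid2 at 1.26 and 1.08 and Suz12 at 0.52 and 0.42 are filled at both times, and the widest intervals belong to Ring1 and Pcgf5, which had 25 to 60 and 33 to 90 reads per library.

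No PRC1 gene among the members was called at either time. Rnf2 was at 110.5 and 108.6 CPM in Hdac3+/+ cells and at 112.4 and 130.9 CPM in the clones at 0 hr, and at 110.5 and 110.4 CPM against 113.6 and 124.6 CPM at 24 hr. Its values in the Hdac3+/+ libraries were close together, and clone 2 was the higher clone at both times. The log2 fold change was 0.16 (95% interval -0.08 to 0.41) at 0 hr and 0.11 (95% interval -0.11 to 0.33) at 24 hr. Ring1, with its 25 to 60 reads, ran from 3.32 to 5.20 CPM in Hdac3+/+ and from 3.57 to 5.62 CPM in Hdac3-/- libraries. At this depth the 95% interval of the fold at 0 hr ran from 0.635 to 1.64 for Ring1 and from 0.693 to 1.64 for Pcgf5. Differences inside these bounds were not excluded, and no limit of detection was computed.

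The PCGF subunits of the variant complexes differed in level and in spread. Pcgf3 was at 105 and 109 CPM in Hdac3+/+ cells and at 135 and 120 CPM in the clones at 0 hr, and at 100.2 and 100.9 CPM against 132 and 119 CPM at 24 hr. Both clones stood above both Hdac3+/+ libraries, clone 1 further than clone 2. The log2 fold change was 0.27 (SE 0.103, 95% interval 0.03 to 0.51, adjusted p = 0.127) at 0 hr and 0.32 (SE 0.094, 95% interval 0.11 to 0.54, adjusted p = 0.0567) at 24 hr, so Pcgf3 was not called. Leaving out clone 2 gave 0.36 at 0 hr and 0.40 at 24 hr, in fits that hold no spread between clones at that time. Leaving out either clone's 0 hr library gave 0.32 at 24 hr. With these fits included, Pcgf3 was called in 1 of 10 alternative fits at 0 hr and in 5 of 13 at 24 hr. Pcgf5 ranged from 4.20 to 5.12 CPM in Hdac3+/+ and from 3.31 to 5.35 CPM in Hdac3-/- libraries. Kdm2b was at 233 and 230 CPM in Hdac3+/+ cells and at 204 and 228 CPM in the clones at 0 hr, a log2 fold change of -0.09 (95% interval -0.30 to 0.13). At 24 hr it was at 296 and 265 CPM against 214 and 251 CPM, with a log2 fold change of -0.27 (95% interval -0.50 to -0.04, adjusted p = 0.121). Kdm2b shares 1.141% of its exon bases with another gene on its strand, and the other 9 members share none.

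Over both times, the 4 Hdac3-/- libraries did not overlap the 4 Hdac3+/+ libraries for 4 of the 10 genes. These were Jarid2, Suz12, Pcgf3 and Rnf2, all with Hdac3-/- higher. Over all 13807 genes the same held for 32.9%, of which 15.7% had Hdac3-/- higher and 17.2% had it lower.

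The effect of 24 hr of DOX was tested within each genotype. DOX called 0 of the 10 genes in Hdac3+/+ cells and 0 of 10 in Hdac3-/- cells by edgeR, against 0.217% and 0.0217% of 13807 genes. DESeq2 and limma with voom also called 0 members. With the replicate number as a block, Jarid2 (adjusted p = 0.000675) and Kdm2b (adjusted p = 3.63e-05) were called in Hdac3+/+ cells, where no label ties the same number at 0 hr and 24 hr to one culture, and calls over all genes went from 30 to 1477. In Hdac3-/- cells, where the number stands for the clone, the block called 0 members and 260 genes against 3. At an unadjusted p under 0.05 there were 991 of 13807 genes in Hdac3+/+ and 265 in Hdac3-/- cells. Of these, 2 were members in Hdac3+/+ and 0 in Hdac3-/- cells. The former were Kdm2b, which went from 233 and 230 to 296 and 265 CPM (log2 fold change 0.28, SE 0.103, adjusted p = 0.573), and Jarid2, which went from 646 and 598 to 727 and 682 CPM (log2 fold change 0.18, SE 0.076, adjusted p = 0.662). In the clones the corresponding log2 fold changes were 0.11 (95% interval -0.13 to 0.34) for Kdm2b and 0.02 (95% interval -0.15 to 0.19) for Jarid2. The interaction of genotype and time called 0 of the 10 genes, against 0.00% of all genes, with 0 members and 260 genes of all at an unadjusted p under 0.05 and 1 gene called by DESeq2. For Jarid2 the interaction was -0.17 on the log2 scale (95% interval -0.41 to 0.08), and for Kdm2b it was -0.17 (95% interval -0.50 to 0.16).

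The hybrid genome allows each gene to be read per allele. The d-score is the share of B6 reads among the allelic reads, and 0.5 means equal reads from both alleles. No member is X-linked: Rnf2 lies on chromosome 1, Pcgf3 and Kdm2b on 5, Ezh2 on 6, Eed on 7, Ezh1 and Suz12 on 11, Jarid2 on 13, Ring1 on 17 and Pcgf5 on 19. The median d-score of each member's chromosome was between 0.478 and 0.519 in every library. Between 57.2% and 60.5% of Ezh2 reads could be assigned to an allele, but only 8.35% to 10.5% of Suz12 and 13.3% to 14.4% of Jarid2 reads. Ring1 had 7 to 25 allelic reads and was not tested.

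In Hdac3+/+ cells at 0 hr, 4 of the 9 members tested had a B6:Cast ratio different from 1, against 31.0% of 9595 genes, 15.8% toward B6 and 15.2% toward Cast. Ezh1 had d-scores of 0.685 and 0.704 in these libraries and of 0.600 to 0.699 in the other 6, so B6 reads exceeded Cast reads in all 8. Its log2 B6:Cast ratio was 1.18 (SE 0.207, adjusted p = 0.000269). Rnf2 had d-scores of 0.718 and 0.618 in these libraries and of 0.562 to 0.634 in the other 6, and a log2 ratio of 1.03 (SE 0.167, adjusted p = 0.000134). Both genes were read more from B6, Ezh1 on 56 to 149 and Rnf2 on 131 to 303 allelic reads per library.

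Kdm2b and Suz12 had more Cast reads. Kdm2b had d-scores of 0.446 and 0.387 and a log2 ratio of -0.48 (SE 0.105, adjusted p = 0.00187), which was not called without replicate 2 (-0.32, adjusted p = 0.137). Suz12 had d-scores of 0.419 and 0.471 and a log2 ratio of -0.32 (SE 0.115, adjusted p = 0.0412). This call was lost without replicate 1 of the 0 hr samples (-0.17, adjusted p = 0.562), without replicate 2 (-0.47, adjusted p = 0.0504), without replicate 2 of the 24 hr samples (-0.32, adjusted p = 0.0513) and with limma on log2 ratios (-0.32, adjusted p = 0.117). Jarid2 had d-scores of 0.425 and 0.497 and was not called (log2 ratio -0.23, SE 0.091, adjusted p = 0.0621), but was called without 0 hr Hdac3+/+ replicate 2 (-0.44, adjusted p = 0.0117) and without any 1 of the 4 Hdac3-/- libraries (-0.23 each, highest adjusted p = 0.0459). Eed had a log2 ratio of 0.22 (SE 0.089, adjusted p = 0.0742), and Ezh2, Pcgf3 and Pcgf5 had ratios of 0.11, 0.05 and 0.02.

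**Figure D3:**
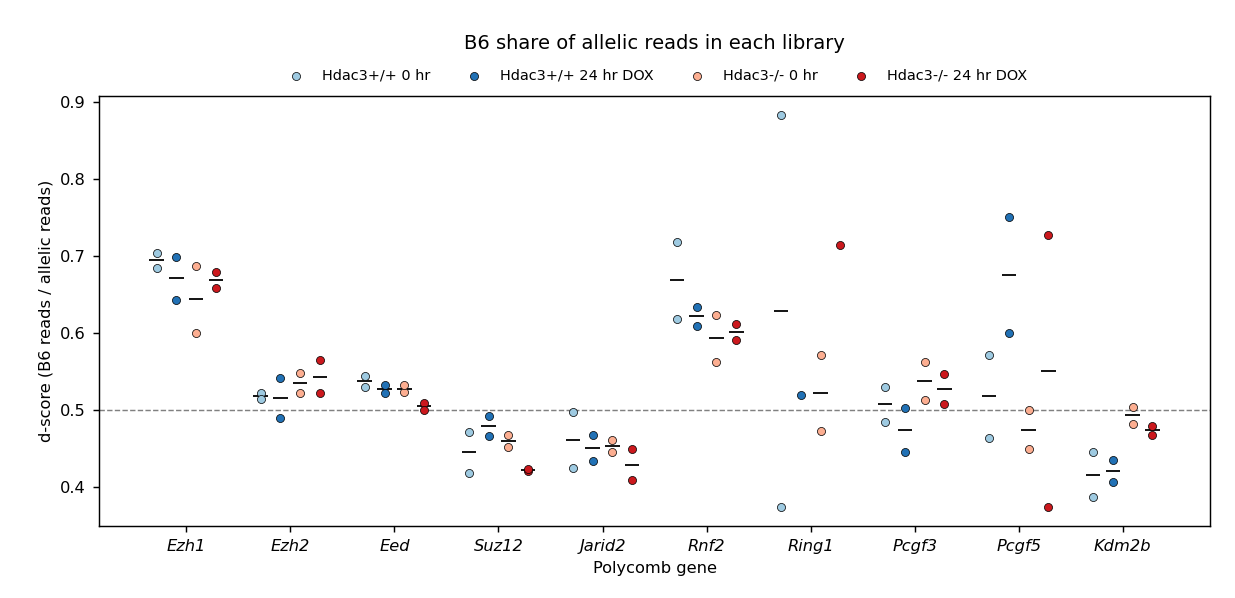
The d-score of each Polycomb gene, the share of B6 reads among allelic reads, in each library with at least 10 allelic reads. Points are libraries colored by genotype and time, short lines are their means, and the dashed line marks 0.5. Ezh1 lies between 0.600 and 0.704 and Rnf2 between 0.562 and 0.718, above the line in every library, while Kdm2b lies between 0.387 and 0.446 in Hdac3+/+ and between 0.468 and 0.504 in Hdac3-/- libraries.

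The higher level of Jarid2 in the clones was found on both alleles. As CPM of all reads in the library, B6 reads of Jarid2 were 40.6 and 41.5 in Hdac3+/+ cells at 0 hr and 87.7 and 92.0 in the clones. Cast reads were 55.0 and 41.9 CPM in Hdac3+/+ cells and 102.2 and 114.4 CPM in the clones. The ratio of the means was 2.19 for B6 and 2.23 for Cast at 0 hr, and 2.06 and 2.25 at 24 hr. The B6:Cast ratio of Jarid2 differed between genotypes by -0.03 on the log2 scale (95% interval -0.29 to 0.22). For Suz12 the ratio of the means was 1.24 for B6 and 1.16 for Cast at 0 hr, and 1.12 and 1.41 at 24 hr, so that the order of the alleles was not the same at both times. Its B6:Cast ratio differed between genotypes at 0 hr by 0.10 (95% interval -0.23 to 0.43). The ratios of the means per allele were not normalized by TMM, unlike the fold changes of all reads. Those of Suz12 both lay below its 1.44-fold change of all reads at 0 hr. At 24 hr they lay on either side of the 1.34-fold change.

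Between genotypes at 0 hr, the B6:Cast ratio of 0 of the 9 members was called, against 0.667% of 9595 genes, and limma on log2 ratios also called 0. At an unadjusted p under 0.05 there were 820 of 9595 genes and 1 of the 9 members. This was Kdm2b, with d-scores of 0.446 and 0.387 in Hdac3+/+ cells and 0.504 and 0.483 in the clones (log2 difference 0.44, SE 0.147, adjusted p = 0.300). At 24 hr its d-scores were 0.436 and 0.407 in Hdac3+/+ cells and 0.468 and 0.480 in the clones. Kdm2b was the 1 member whose d-scores did not overlap between genotypes over both times, which held for 7.45% of the 9595 genes. Its Cast reads were 28.9 and 27.2 CPM in Hdac3+/+ cells and 22.0 and 22.2 in the clones at 0 hr, and its B6 reads 23.2 and 17.2 CPM against 22.4 and 20.7 CPM. With DOX, the B6:Cast ratio of 0 of the 9 members was called in Hdac3+/+ cells (1.61% of all genes), in Hdac3-/- cells (0.406%) or in the interaction (0.208%). No member had an unadjusted p under 0.05 in these 3 comparisons, where 524, 418 and 435 genes of all did. Limma called 0 members in each.

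The other genes of the Polycomb pathway were compared as lists between genotypes. Their counts stand beside 6.33% of all genes called higher and 7.24% called lower at 0 hr, and 6.01% and 6.90% at 24 hr, and were not tested against these shares. Of 9 other PRC2 genes, 3 were higher in Hdac3-/- cells at 0 hr and 0 were lower, with a median log2 fold change of 0.32 against 0.003 over all genes. Aebp2, which encodes a SUZ12-binding accessory subunit of the JARID2-containing form of PRC2, was at 76.7 and 65.8 CPM in Hdac3+/+ cells and at 145.9 and 147.3 CPM in the clones (log2 fold change 1.06, SE 0.108, adjusted p = 0.00166). Mtf2, a Polycomb-like subunit of the other form of PRC2, was at 280 and 262 CPM against 471 and 413 CPM (0.72, SE 0.098, adjusted p = 0.00428). The histone chaperone subunit gene Rbbp7, which is X-linked, was at 319 and 371 CPM against 464 and 453 CPM (0.43, SE 0.1005, adjusted p = 0.0305). The same 3 genes were called at 24 hr, with log2 fold changes of 1.21, 0.76 and 0.57. Without Hdac3+/+ replicate 2 only Aebp2 was called at 0 hr. Rbbp7 was at 234 and 258 CPM after DOX in Hdac3+/+ cells and was not called against 0 hr (-0.49, adjusted p = 0.0877). The X-linked Ezhip, which encodes an inhibitor of PRC2, had 7 to 72 reads and was not called.

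Of 32 other PRC1 genes, 4 were higher and 5 lower at 0 hr, with a median log2 fold change of 0.09. Bmi1 (PCGF4), a gene of canonical PRC1, was at 22.2 and 24.9 CPM in Hdac3+/+ cells and at 10.1 and 12.7 CPM in the clones (log2 fold change -1.04, SE 0.182, adjusted p = 0.0107). Among the other lower genes, named after their values were seen, were the chromodomain genes Cbx2 (-0.59) and Cbx7 (-0.34) and the polyhomeotic gene Phc1 (-0.37). Cbx7 was at 182.5 and 170.2 CPM in Hdac3+/+ cells and at 137.4 and 139.2 CPM in the clones.

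Among the higher genes, Pcgf1, which encodes the PCGF subunit of another variant PRC1, was at 5.58 and 5.76 CPM in Hdac3+/+ cells and at 12.2 and 8.71 CPM in the clones (0.91, SE 0.246, adjusted p = 0.0474), and the X-linked Bcor was at 136 and 125 CPM against 188 and 203 CPM (0.59, SE 0.097, adjusted p = 0.00825). Pcgf1 lost its call in 6 of 10 alternatives, among them DESeq2 (adjusted p = 0.0831), voom (0.0553) and the fit of all 8 samples (0.0508). The other 2 higher genes, named after their values were seen, were Wdr5 (0.45), which encodes a WD-repeat adaptor, and Pcgf2 (0.38), whose product like BMI1 forms canonical PRC1. Without either Hdac3+/+ library at 0 hr none of these 9 PRC1 calls was left (0 higher and 0 lower), and calls over all genes went from 1795 to 326 and 343. At 24 hr 3 PRC1 genes were higher and 4 lower, again with Bmi1 (-0.80), Cbx2 (-0.43), Cbx7 (-0.36) and Phc1 (-0.43) lower. The 3 higher genes at 24 hr were Scmh1 (0.65), Bcor (0.49) and Wdr5 (0.40), and Pcgf1 (0.74, adjusted p = 0.0990) and Pcgf2 (0.11, adjusted p = 0.313) were not called. Of these 7 calls at 24 hr, those lower went to 0 without either Hdac3+/+ library of that time and to 1 without clone 1, and those higher went to 1 and 0 without Hdac3+/+ replicate 1 and replicate 2. Cbx2 was called at 24 hr in 5 of 13 alternatives. At 0 hr DESeq2 called 3 of the 5 lower genes and did not call Cbx7 (adjusted p = 0.0566). The X-linked Bcorl1 (0.10) and Kdm6a (-0.20), an H3K27 demethylase gene, were not called at 0 hr.

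**Figure D4:**
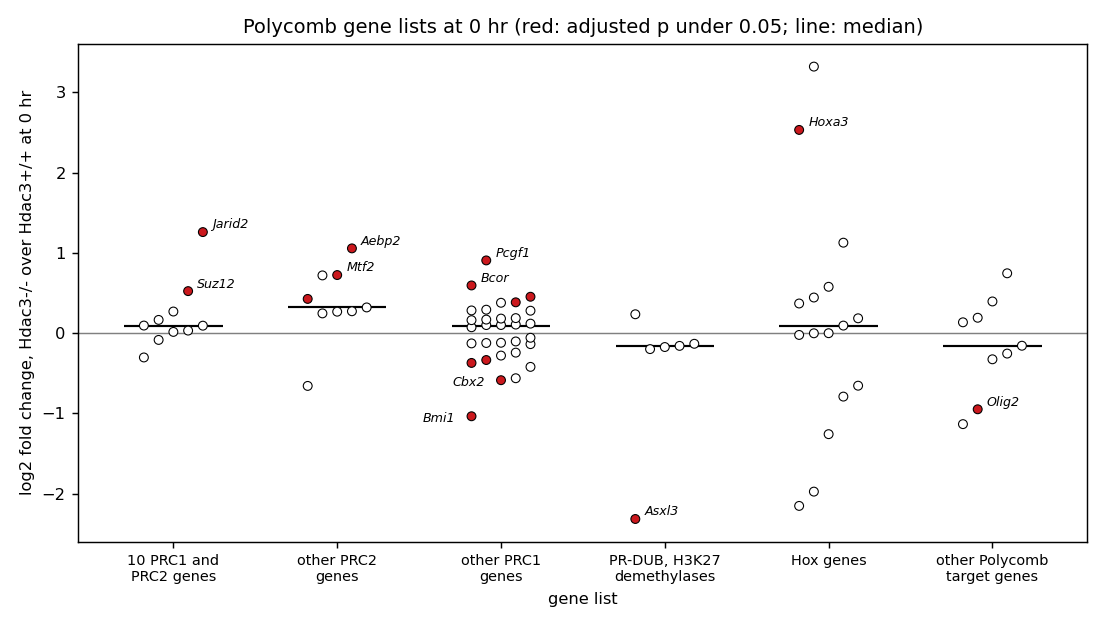
Log2 fold change in Hdac3-/- over Hdac3+/+ cells at 0 hr for the 10 members and for other Polycomb genes in lists, each point being 1 gene that passed the filter on low values. Red points passed an adjusted p of 0.05, and the lines are list medians. Jarid2 (1.26), Aebp2 (1.06), Mtf2 (0.72) and Suz12 (0.52) stand above the median of 0.32 of the other PRC2 genes, while Bmi1 (-1.04) is the lowest PRC1 gene. Asxl3 and Hoxa3 passed the filter through 1 genotype alone. Points of genes not reported here are not drawn, and the medians include them.

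Of the 6 PR-DUB and H3K27 demethylase genes, 1 was called lower and 0 higher at both times. Asxl3, which encodes a cofactor of the BAP1 deubiquitinase, was at 10.7 and 6.42 CPM in Hdac3+/+ cells and at 1.55 and 1.88 CPM in the clones at 0 hr. It passed the filter on low values through the Hdac3+/+ libraries alone, so it had to differ, and no test is given for it. Among Polycomb target genes, 17 of 39 Hox genes passed the filter on low values at 0 hr, and 2 were higher and 0 lower. Hoxa3 had 6 and 9 reads in Hdac3+/+ and 77 and 26 reads in Hdac3-/- libraries. It passed the filter through the Hdac3-/- libraries alone, so no test is given for it and the count of 2 includes a gene that had to differ. At 24 hr 0 of 18 Hox genes were called. Both Hox calls at 0 hr were lost without either Hdac3+/+ library of that time. Of 24 other target genes 9 passed the filter at 0 hr, and 1 was lower. This was Olig2 on chromosome 16 (-0.95, SE 0.253, adjusted p = 0.0445), where the median d-score was 0.5 in clone 2 and 0.333 to 0.341 in clone 1 and the Hdac3+/+ libraries at 0 hr. Over 419 genes of chromosome 16 the median log2 fold change at 0 hr was -0.22, against 0.003 over all genes. The part of this shift in the Olig2 change was not tested. The Olig2 call was lost without Hdac3+/+ replicate 1 (-0.76, adjusted p = 0.287) or replicate 2 (-1.12, adjusted p = 0.111), and at 24 hr Olig2 was again called (-0.97, adjusted p = 0.0454) but not without either Hdac3+/+ library of that time (adjusted p = 0.253 and 0.130). Without a replicate block, no gene of these lists was called with DOX in either genotype or in the interaction.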

How the data were processed

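RNA was depleted of rRNA in library preparation and sequenced in 8 samples. Per the methods and labels, the authors removed rRNA reads, mapped the rest to mm10 with TopHat2 (2.1.0) and counted exon reads by strand with featureCounts (1.5.1). They deposited unnormalized counts of all, B6 and Cast reads per gene, and the d-score, a fraction that the authors gave where a gene had 10 allelic reads or more. The authors' d-scores were recomputed from the counts.

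Genes were tested on total counts after TMM normalization by the quasi-likelihood test in edgeR 4.0.16 under R 4.3.3, with Benjamini-Hochberg adjustment over all genes tested and a threshold of 0.05. As in the study's design, genotype at 0 hr was tested on the 4 samples of that time, keeping genes that exceeded 1 TPM in 2 or more. All other contrasts used 1 fit of 8 samples with a term per group. Allele counts entered as 2 columns per sample, with a term per sample and a B6 term per group, where every sample had 10 or more allelic reads. SE values were taken from the test statistic. TPM used exon lengths of GENCODE M21; 652 symbols had no match. With edgeR, genotype at 0 hr and the interaction on total counts were checked on simulated data. So was the B6:Cast ratio between genotypes at 0 hr. The other contrasts and the alternatives were not checked in this way. Alternatives used DESeq2 1.42.0 and limma 3.58.1. Named genes were the 10 members, the called genes of other lists (at most 4 per list with the largest change), and X-linked Polycomb genes. Other called PRC1 genes were named as well, after their values were seen. The members and lists were chosen with earlier results of these data known. P-values measure the spread between duplicates of 1 line and between 2 clones. No sample was left out, and some genes of the lists are not reported here. Python 3.11.15 with pandas 2.3.3, numpy 2.4.6, scipy 1.17.1 and matplotlib 3.10.9 made the tables and plots.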

Additional observations from a re-analysis of the deposited data

How the results depend on the processing

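Jarid2 was called higher at both times under every alternative. With 2 samples per group, counts of calls depended on single libraries. Leaving out 1 library, the genes called between genotypes ran from 326 to 3353 at 0 hr and from 440 to 1990 at 24 hr, and the members called from 1 to 3 at both times. With DOX in Hdac3+/+ cells the range was 2 to 85 genes and in Hdac3-/- cells 2 to 2, with 0 members in both, and the interaction called 0. For the B6:Cast ratio the ranges were 1596 to 3094 genes and 3 to 5 members against 1 at 0 hr, 12 to 121 genes between genotypes, 83 to 158 and 27 to 44 with DOX in Hdac3+/+ and Hdac3-/- cells, and 3 to 21 in the interaction, with 0 members in each of the last 4.

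Other settings moved counts of genes called more than 1.5-fold. Without the filter on low counts, 3107 genes were called between genotypes at 0 hr and 2939 at 24 hr, 275 and 36 with DOX in Hdac3+/+ and Hdac3-/- cells, and 6 in the interaction. DESeq2 called 115 and 15 genes with DOX and 1 in the interaction, and voom called 14 with DOX in Hdac3+/+ cells. Limma on log2 allele ratios called 1816 genes against 1 at 0 hr, 2 between genotypes, 94 and 1 with DOX, and 0 in the interaction, where a minimum of 50 allelic reads gave 13. Without the filter Pcgf3 was called at 24 hr (adjusted p = 0.0386).

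Replicate numbers were taken as clones in Hdac3-/- cells, which pairs their 0 hr and 24 hr samples, although the labels do not name the clones. In Hdac3+/+ cells and between genotypes the samples share only a number. Deviations from the group means of same-numbered samples correlated at 0.592 between times in Hdac3-/- cells, 0.248 in Hdac3+/+ cells and 0.152 to 0.191 between genotypes. With a replicate block, 2946 genes were called between genotypes at 0 hr and 3366 at 24 hr, 1477 and 260 with DOX in Hdac3+/+ and Hdac3-/- cells, and 253 in the interaction. For allele ratios it called 206 between genotypes, 90 with DOX in Hdac3-/- cells and 70 in the interaction. With the block, 2 members were called with DOX in Hdac3+/+ cells, Jarid2 (log2 fold change 0.18, adjusted p = 0.000675) and Kdm2b (0.28, adjusted p = 3.63e-05), Pcgf3 was called at 24 hr (adjusted p = 0.0179) and the Jarid2 allele ratio at 0 hr (-0.39, adjusted p = 6.52e-06).

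Of 1112 member values under an alternative, 9 lost a call, 14 gained one and 0 changed sign while called. Ring1 and Pcgf5 are limited by depth, with at most 60 and 90 reads. Gene lengths came from GENCODE rather than from the annotation used for counting. This bears on TPM and, through the filter on TPM, on which genes were tested on total counts. The causes of these differences were not tested.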
